A study of Mus musculus with 6 samples.

Results

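Genes of the major histocompatibility complex (MHC) and of antigen presentation were examined in mouse regulatory T (Treg) cells that had differentiated in culture with or without sorafenib (Sora), a multikinase inhibitor given for liver cancer. The members were every row of the count table whose symbol begins with H2- and 12 further genes of the light chain, of peptide loading and of MHC regulation, namely B2m, Tap1, Tap2, Tapbp, Tapbpl, Erap1, Ciita, Nlrc5, Cd74, Rfx5, Rfxap and Rfxank. They came to 39 of the 22939 rows. By role they were 16 class I heavy chain genes, 10 class II genes with the invariant chain Cd74 counted among them, 11 genes of the light chain, of loading or of regulation, and 2 H2- rows with no part in antigen presentation. The study took naive CD4+ T cells from lymph nodes and spleen of mice with a Foxp3GFP knock-in on the C57BL/6J strain, whose cells show green fluorescent protein (GFP) when they express Foxp3. Cells were stimulated through CD3 and CD28 with TGF-β1 and antibodies against interferon-γ and IL4 in both groups, and GFP+ cells were sorted for RNA-seq. There were 3 libraries without Sora (ctrl-Treg) and 3 with Sora (Sora-Treg). The study describes the mice it used as female, and the concentration of Sora and the time in culture of these particular cells, and the number and age of the mice that gave them, were not given in the sources used here.

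Class I molecules pair a polymorphic heavy chain with the light chain β2-microglobulin and show peptides from the cytosol to CD8 T cells. The peptides are cut by the proteasome, carried into the endoplasmic reticulum by the TAP transporter, trimmed by aminopeptidases and loaded with the help of tapasin, and the coactivator NLRC5 drives the genes of this route. Class II molecules pair an α and a β chain, travel with the invariant chain CD74 to endosomes, exchange its fragment for peptide under the control of H2-DM and H2-DO, and show peptides to CD4 T cells. Class II genes depend on the coactivator CIITA, which joins the RFX complex, NF-Y and CREB at the promoter. Class II is made above all by dendritic cells, B cells and macrophages, and mouse T cells are known for little of it. Mice of the C57BL/6 background carry a haplotype that lacks a working I-E α chain gene, so their class II molecule is I-A, made of H2-Aa and H2-Ab1.

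Total counts ranged from 30727686 to 37717324 per library, and 3 counts, taken as the floor, corresponded to between 0.0762 and 0.0989 CPM, counts scaled to a common library size. These and all other levels are given as CPM after trimmed-mean (TMM) scaling, or as deposited FPKM, which also divide by gene length, where genes are compared with each other. Each gene was tested with the quasi-likelihood test of edgeR over all 13463 genes that passed its filter on low counts, with Benjamini-Hochberg adjustment, and was called higher or lower at an adjusted p under 0.05. A called gene whose log2 fold change lay above 1 or below -1 is a differentially expressed gene (DEG). The labels do not say whether the replicates came from separate cultures or animals, so p-values measure the spread between these libraries, which was narrow (biological coefficient of variation 4.29%). The 8 T cell and Treg cell markers looked at (Cd3e, Cd3d, Cd3g, Cd4, Foxp3, Il2ra, Ctla4 and Ikzf2) were present in every library, with summed levels of 3942 to 3992 CPM in ctrl-Treg cells against 6966 to 7096 CPM in Sora-Treg cells. Most of this rise was in Il2ra (means of 1934 and 3795 CPM), and Ctla4 (383 and 1108 CPM) and the Cd3 genes rose too. Foxp3 (259 and 272 CPM), Cd4 (679 and 709 CPM) and Ikzf2 (147 and 149 CPM) differed little. Scaling by library totals alone shifted the median of all log2 fold changes by -0.12, so the sign of smaller differences depended on the scaling.

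Of the 39 members, 35 passed the filter, and 12 of these were higher and 14 lower in Sora-Treg cells, while 9 did not pass the test. Of all tested genes 59.6% were called, 29.7% higher and 29.9% lower, so a call alone sets no gene apart in this comparison, and under scaling by library totals 2862 genes were higher and 5614 lower in place of 3994 and 4028. The median log2 fold change was -0.043 over the tested members and -0.0035 over all tested genes. DEGs made up 11.3% of all tested genes (6.3% higher and 4.97% lower), and the members held 9, of which 4 were higher (H2-Q10, H2-Ab1, H2-Q2 and H2-Q1) and 5 lower (H2-Aa, H2-Eb1, Cd74, H2-DMb2 and Ciita). Class I heavy chains had 7 higher and 3 lower among 13 tested, with a median of 0.24 (7 and 5 under scaling by library totals), whereas the class II genes had 1 higher and 6 lower among 9 tested, with a median of -0.66. The 11 genes of loading and regulation, with 2 higher and 5 lower, had a median of 0.015.

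**Figure D1:**
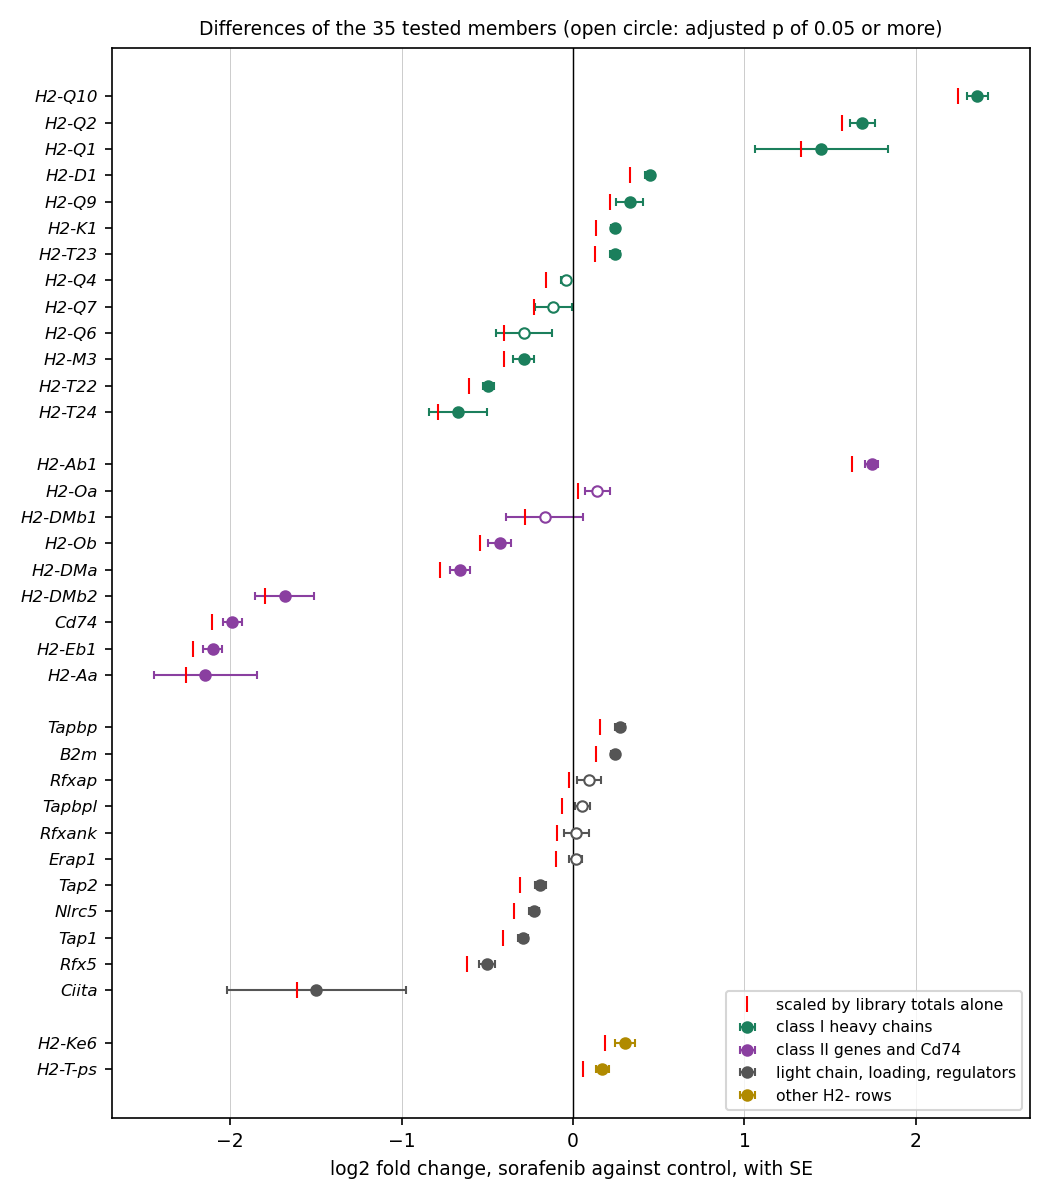
Log2 fold change of Sora-Treg against ctrl-Treg cells for the 35 tested members, grouped by role, with filled circles for an adjusted p under 0.05, open circles for the rest, bars for the SE and red ticks for the value under scaling by library totals alone. H2-Q10 lay highest at 2.36 and H2-Aa lowest at -2.15, and among class II genes H2-Ab1 stood at 1.74 while H2-Eb1, H2-Aa and Cd74 lay between -2.15 and -1.99.

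The classical class I heavy chains, which present peptides to CD8 T cells, were the most abundant heavy chains per length and were slightly higher in Sora-Treg cells. H2-K1 (chromosome 17, like all H2- genes here) was at 2145, 2207 and 2168 CPM in the ctrl-Treg libraries against 2604, 2519 and 2609 CPM in the Sora-Treg libraries, a log2 fold change of 0.25 ± 0.02 (SE, adjusted p = 1.73e-09 by edgeR). H2-D1 was at 1519, 1559 and 1497 CPM and 2117, 2025 and 2091 CPM respectively, a log2 fold change of 0.45 ± 0.02 (SE, adjusted p = 1.66e-13 by edgeR). In both genes each Sora-Treg library lay above each ctrl-Treg library. In these bulk libraries, fewer cells of a type and less RNA per cell cannot be told apart. Per length, the level of H2-D1 relative to H2-K1 went from 0.882 ± 0.0124 in ctrl-Treg cells to 1.01 ± 0.00756 in Sora-Treg cells (ratio of FPKM, SD, n = 3), a ratio that library scaling does not touch. Over all 16 class I heavy chains the summed level went from 4802 ± 59.4 to 5797 ± 119 CPM, and the 2 classical genes made up 75.4 ± 0.481% of the summed FPKM in ctrl-Treg cells against 78.1 ± 0.0717% in Sora-Treg cells. The other 14 summed to 1103 ± 17.1 CPM and 1142 ± 22.1 CPM, with overlapping groups.

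Within the Q region, which encodes nonclassical class I chains, 3 genes were DEGs and all were higher in Sora-Treg cells. H2-Q10, a class I chain known as a secreted product of the liver, was at 14.6, 15.3 and 12.7 CPM in ctrl-Treg cells against 73.8, 69.2 and 75.9 CPM in Sora-Treg cells. Every Sora-Treg library was well above every ctrl-Treg library, and the log2 fold change was 2.36 ± 0.06 (SE, adjusted p = 4.63e-19 by edgeR), a 5.13-fold difference. H2-Q2 was at 11.2, 10.2 and 9.90 CPM and 32.5, 35.2 and 33.3 CPM respectively, a 3.22-fold difference with a log2 fold change of 1.69 ± 0.07 (SE, adjusted p = 4.35e-15 by edgeR). H2-Q1 was the scarcest tested heavy chain, at 0.508, 0.275 and 0.501 CPM against 1.09, 1.54 and 0.899 CPM, with counts from 10 to 20 in ctrl-Treg and from 32 to 49 in Sora-Treg libraries. Its log2 fold change was 1.45 ± 0.39 (SE, adjusted p = 0.00265 by edgeR), and it was 1.22 without ctrl-Treg replicates 1 and 2, with replicate 3 as the only ctrl-Treg library. Despite these folds the levels of H2-Q2 and H2-Q10 stayed small beside the classical chains: together they made up 0.594 ± 0.0400% of class I heavy chain FPKM in ctrl-Treg cells against 2.17 ± 0.0345% in Sora-Treg cells.

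The genes of the Qa-2 group, H2-Q6, H2-Q7 and H2-Q9, encode membrane-anchored chains of close sequence and showed no common change. H2-Q9 was at 20.1, 21.0 and 17.9 CPM in ctrl-Treg cells against 27.9, 23.4 and 23.0 CPM in Sora-Treg cells, with no overlap, and had a log2 fold change of 0.33 ± 0.08 (SE, adjusted p = 0.00131 by edgeR). H2-Q7 was at 44.9, 27.0 and 32.3 CPM and 31.1, 32.3 and 33.1 CPM, where ctrl-Treg replicate 1 stood above the 5 other libraries and the groups overlapped. Its log2 fold change of -0.12 ± 0.11 (SE, adjusted p = 0.382 by edgeR) became 0.12 without that library, and -0.27 with an edgeR adjusted p of 0.0223 without ctrl-Treg replicate 2. H2-Q6 was at 8.08, 11.8 and 7.45 CPM and 9.46, 5.71 and 7.28 CPM, again with overlap, and had a log2 fold change of -0.29 ± 0.16 (SE, adjusted p = 0.132 by edgeR). This value passed the test without ctrl-Treg replicate 3 (-0.41, edgeR adjusted p = 0.0477) or Sora-Treg replicate 1 (-0.48, edgeR adjusted p = 0.0127), and was 0.00343 without ctrl-Treg replicates 1 and 2. Summed over the 3 genes they reached 63.5 ± 8.36 CPM in ctrl-Treg cells against 64.4 ± 3.64 CPM in Sora-Treg cells. H2-Q4, per length the most abundant nonclassical gene in ctrl-Treg cells, was at 440.0, 439 and 439 CPM and 428, 423 and 428 CPM, so that the Sora-Treg libraries lay just below the ctrl-Treg ones. For H2-Q4 the log2 fold change came to -0.043 ± 0.025 (SE, adjusted p = 0.148 by edgeR), and scaling by library totals gave -0.16 with an edgeR adjusted p of 9.30e-06.

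Genes of the T and M regions went in both directions. H2-T23 encodes the Qa-1 chain, which presents leader peptides of other class I chains to the CD94/NKG2 receptors of natural killer cells, and was at 284, 279 and 273 CPM in ctrl-Treg cells against 333, 319 and 337 CPM in Sora-Treg cells. It was higher in every Sora-Treg library, with a log2 fold change of 0.24 ± 0.03 (SE, adjusted p = 2.20e-07 by edgeR). H2-T22, a chain recognised by some γδ T cells, was at 258, 262 and 256 CPM and 187, 177 and 186 CPM, lower in every Sora-Treg library, with a log2 fold change of -0.49 ± 0.03 (SE, adjusted p = 3.06e-12 by edgeR). H2-T24 was at 5.16, 4.29 and 4.73 CPM and 2.37, 2.98 and 3.51 CPM, a log2 fold change of -0.67 ± 0.17 (SE, adjusted p = 0.00179 by edgeR). H2-M3, which presents formylated peptides of bacteria and mitochondria, was at 34.4, 31.0 and 34.4 CPM and 27.2, 27.2 and 27.3 CPM, a log2 fold change of -0.29 ± 0.06 (SE, adjusted p = 2.53e-04 by edgeR). The groups did not overlap in these 4 genes. H2-M2, H2-T3 and H2-M5 had at most 11, 5 and 1 counts in any library and were not tested. Over the 13 tested heavy chains the groups did not overlap in 11, of which 7 were higher and 4 lower, where 63.7% of all tested genes did not overlap (31.8% higher and 32% lower).

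**Figure D2:**
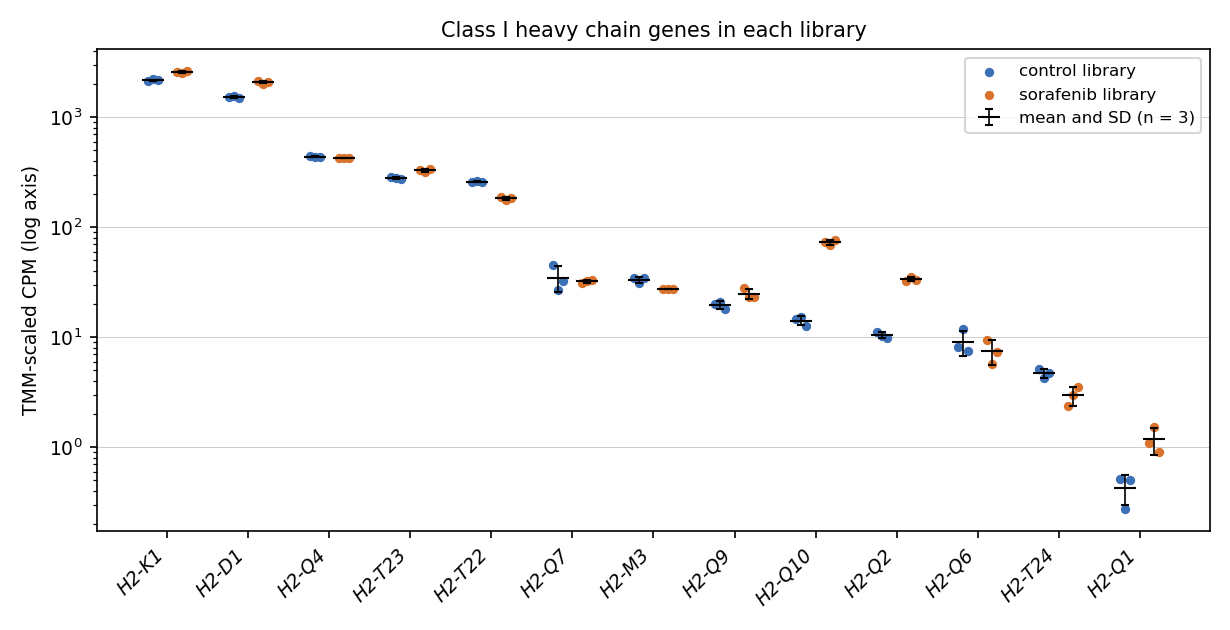
TMM-scaled CPM (log axis) of the 13 tested class I heavy chain genes in each ctrl-Treg library (blue) and each Sora-Treg library (orange), ordered by mean FPKM in ctrl-Treg cells, with the mean and SD of 3 libraries in black. H2-Q10 moved from 14.2 to 72.9 CPM and H2-Q2 from 10.4 to 33.7 CPM, while H2-K1 and H2-D1 stayed far above the rest in both groups.

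Class I genes share sequence, and the sources differ on how reads were counted (HTSeq in the submitters' notes, an expectation maximization step in the study's methods), so how reads that fit several of these genes were treated is unsettled and the values of single genes are uncertain to that extent. Of 100-base windows of its longest GENCODE transcript, H2-K1 and H2-Q2 shared none with another gene (8.11% and 8.74% of 50-base windows), H2-Q4 shared 2.24%, H2-D1 4.64%, H2-Q10 8.8%, H2-Q1 9.13%, H2-T22 9.38%, H2-Q6 10.8% and H2-Q7 13.5%. The closest gene was H2-Q7 for H2-Q10 (6.38% of its 100-base windows) and H2-Q2 for H2-Q1 (3.84%, from transcripts of H2-Q2 other than its longest). The GENCODE release used has no H2-Q9, so windows shared with H2-Q9 were not counted for any gene. The shares of H2-Q6 and H2-Q7, which are close to it in sequence, may therefore be too low, and H2-Q9 itself has no share.

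The promoters of heavy chains that differed in response are printed as 150 bases before the start of the gene, 5′ to 3′ on the gene's own strand (RefSeq, GRCm38.p6). H2-D1 rose by less than 1 on the log2 scale, H2-Q4 did not pass the test, and H2-Q2 and H2-Q10 were DEGs. Capitals mark TGACG, the core of the CREB site of the MHC enhanceosome, and CCAAT, the Y box bound by NF-Y, or their complements CGTCA and ATTGG. They lie at chr17:35262944-35263093, chr17:35379467-35379616, chr17:35342157-35342306 and chr17:35469939-35470088, all on the plus strand.
H2-D1: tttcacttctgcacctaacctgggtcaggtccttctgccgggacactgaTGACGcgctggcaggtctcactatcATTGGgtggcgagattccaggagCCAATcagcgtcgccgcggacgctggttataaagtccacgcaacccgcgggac
H2-Q4: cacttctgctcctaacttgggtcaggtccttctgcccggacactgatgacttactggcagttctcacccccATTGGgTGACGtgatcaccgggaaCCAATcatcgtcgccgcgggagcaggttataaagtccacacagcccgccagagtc
H2-Q2: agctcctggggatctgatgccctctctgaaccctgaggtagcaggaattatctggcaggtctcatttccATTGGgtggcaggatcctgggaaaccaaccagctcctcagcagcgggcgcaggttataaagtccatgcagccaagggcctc
H2-Q10: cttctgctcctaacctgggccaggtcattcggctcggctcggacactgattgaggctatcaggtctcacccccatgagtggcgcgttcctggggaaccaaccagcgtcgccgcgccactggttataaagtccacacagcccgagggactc
H2-D1 and H2-Q4 held TGACG and a pair of Y boxes in opposite orientation, but TGACG was not at the same place. In H2-D1 it came before both Y boxes, and in H2-Q4 it lay between them. H2-Q2 held 1 Y box and no TGACG, and H2-Q10 held neither motif. In windows from 250 bases before to 50 bases after the start, read on both strands, TGACG was in 7 of 13 class I promoters and CCAAT in 10, against 20.8% and 37.4% of 32851 promoters. The core of the interferon-stimulated response element (ISRE) was in H2-T22 and H2-T23 (3.44% of all promoters) and TTCNNNGAA, the core of the STAT site, in H2-M3 (8.3%). Among the 5 called class I genes that were higher and had an entry, H2-D1 and H2-K1 held TGACG and H2-Q10, H2-Q2 and H2-T23 did not, and of the lower ones H2-T22 and H2-M3 held it. A match is a run of letters and was not shown to be a bound site.

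Of the 9 tested class II genes 5 were DEGs, and H2-Ab1 was the one that rose. H2-Ab1, the β chain of I-A, was at 56.5, 58.0 and 53.6 CPM in ctrl-Treg cells against 193, 184 and 186 CPM in Sora-Treg cells, a 3.35-fold difference with a log2 fold change of 1.74 ± 0.04 (SE, adjusted p = 1.55e-20 by edgeR). H2-Aa, its partner α chain, was at 2.54, 2.69 and 1.82 CPM and 0.461, 0.502 and 0.618 CPM, 4.42-fold lower, with a log2 fold change of -2.15 ± 0.30 (SE, adjusted p = 1.72e-06 by edgeR). The partners therefore changed in opposite directions, with no overlap between groups in either, and H2-Aa rested on 58 to 100 counts per ctrl-Treg library and 14 to 22 per Sora-Treg library. H2-Eb1, the β chain of I-E, was at 60.1, 62.7 and 58.3 CPM and 13.7, 14.5 and 14.0 CPM, 4.30-fold lower, with a log2 fold change of -2.10 ± 0.06 (SE, adjusted p = 6.14e-19 by edgeR). H2-Eb2 had 3 counts in each ctrl-Treg library and 0 in each Sora-Treg library, which is at or under the floor, and was not tested.

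Per length, H2-Ab1 was at 48.8 ± 1.95 FPKM in ctrl-Treg cells against 151 ± 3.92 FPKM in Sora-Treg cells (SD, n = 3). H2-Aa was the scarcest of the tested class II chains in Sora-Treg cells, with 2.17 ± 0.432 FPKM in ctrl-Treg cells against 0.449 ± 0.0689 FPKM in Sora-Treg cells (SD, n = 3). H2-Eb1 was at 37.6 ± 1.33 FPKM in ctrl-Treg cells against 8.09 ± 0.199 FPKM in Sora-Treg cells (SD, n = 3). In ctrl-Treg cells H2-Ab1 already stood 23.1 ± 4.17 times above H2-Aa, and in Sora-Treg cells 342 ± 54.9 times (ratio of FPKM, SD, n = 3), with 285 as the lowest Sora-Treg ratio and 27.9 as the highest ctrl-Treg ratio. The ratio of H2-Ab1 to H2-Eb1 went from 1.30 ± 0.0152 to 18.7 ± 0.915. H2-Ab1 thus made up 55.1 ± 0.210% of the FPKM of the 4 classical class II genes in ctrl-Treg cells against 94.6 ± 0.254% in Sora-Treg cells. The sum of these 4 genes went from 119 ± 4.85 to 202 ± 4.16 CPM, and without H2-Ab1 it went from 62.8 ± 2.63 to 14.6 ± 0.380 CPM. The H2-Ab1 rise had a log2 fold change between 1.61 and 1.81 under every alternative tried, and no 50-base window of its longest transcript was shared with another gene.

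Cd74, the invariant chain (chromosome 18), was lower together with H2-Eb1 and H2-Aa. It was at 69.8, 70.1 and 68.6 CPM in ctrl-Treg cells against 18.9, 17.7 and 16.1 CPM in Sora-Treg cells, 3.97-fold lower, with a log2 fold change of -1.99 ± 0.06 (SE, adjusted p = 1.41e-18 by edgeR). Its ratio to H2-Eb1 was 1.36 ± 0.0354 in ctrl-Treg cells against 1.47 ± 0.131 in Sora-Treg cells (ratio of FPKM), and the groups overlapped in this ratio. H2-DMa and H2-DMb2 encode chains of the H2-DM exchange factor. H2-DMa was at 57.6, 56.3 and 57.1 CPM and 38.6, 32.0 and 37.6 CPM, a log2 fold change of -0.66 ± 0.06 (SE, adjusted p = 8.79e-10 by edgeR). H2-DMb2 was at 5.92, 5.58 and 4.85 CPM and 1.71, 1.76 and 1.63 CPM, a log2 fold change of -1.68 ± 0.17 (SE, adjusted p = 1.53e-08 by edgeR). The other β chain gene of this factor, H2-DMb1, was at 2.18, 2.47 and 2.29 CPM and 2.24, 1.63 and 2.30 CPM, with overlap and a log2 fold change of -0.17 ± 0.22 (SE, adjusted p = 0.543 by edgeR). H2-DMb1 and H2-DMb2 share 13.7% and 12.9% of their 100-base windows with each other, and H2-DMa overlaps Brd2 on the opposite strand, which was not called at 357 and 372 CPM. H2-DO, which restrains H2-DM, is made of H2-Oa and H2-Ob, of which H2-Ob passed the test and H2-Oa did not. H2-Ob was at 26.9, 25.8 and 26.4 CPM and 18.9, 19.2 and 20.6 CPM, a log2 fold change of -0.43 ± 0.07 (SE, adjusted p = 7.55e-06 by edgeR). H2-Oa was at 18.6, 16.9 and 17.1 CPM and 19.0, 20.3 and 18.8 CPM, where the Sora-Treg libraries lay just above the ctrl-Treg ones, with a log2 fold change of 0.14 ± 0.07 (SE, adjusted p = 0.108 by edgeR). Over the 9 tested genes the groups did not overlap in 8, of which 6 were lower and 2 higher (63.7% of all tested genes did not overlap, 32% lower and 31.8% higher).

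**Figure D3:**
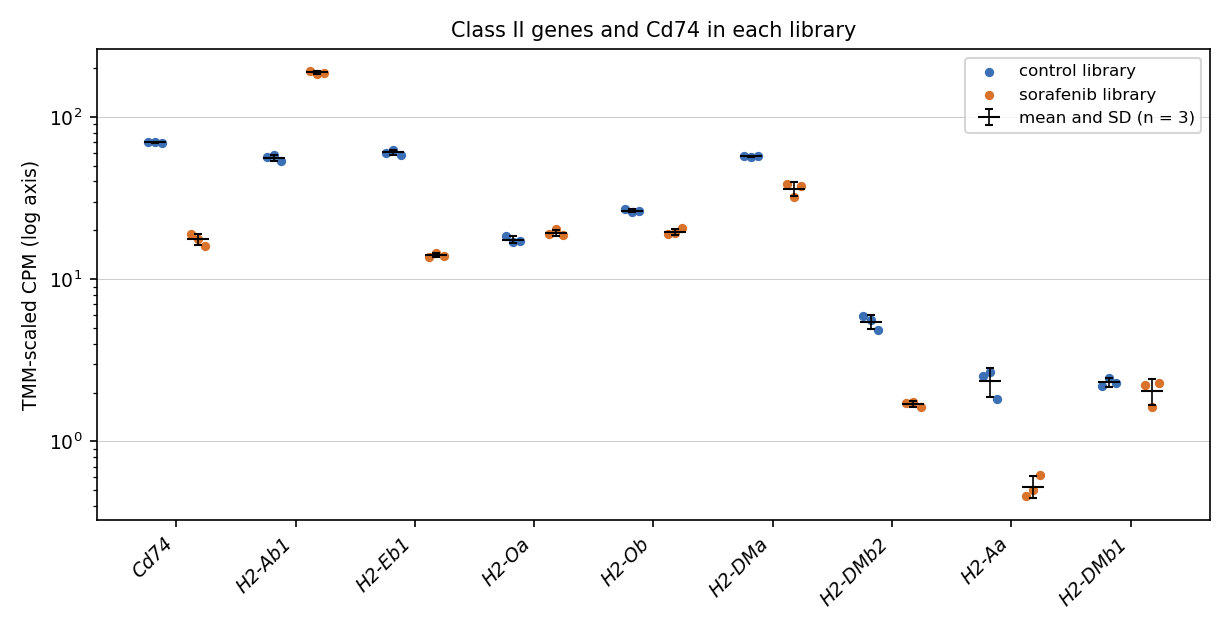
TMM-scaled CPM (log axis) of the 9 tested class II genes in each ctrl-Treg library (blue) and each Sora-Treg library (orange), ordered by mean FPKM in ctrl-Treg cells, with the mean and SD of 3 libraries in black. Cd74, H2-Ab1 and H2-Eb1 began at 56.0 to 69.5 CPM and ended apart, H2-Ab1 at 188 CPM and the other two at 17.6 and 14.1 CPM.

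The promoters of both classical class II genes that fell and have an entry are printed in the same way. H2-Aa lies on the minus strand (chr17:34287824-34287973) and H2-Eb1 on the plus strand (chr17:34305717-34305866).
H2-Aa: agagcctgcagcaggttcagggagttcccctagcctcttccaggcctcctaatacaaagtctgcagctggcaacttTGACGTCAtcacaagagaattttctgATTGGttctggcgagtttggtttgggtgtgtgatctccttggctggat
H2-Eb1: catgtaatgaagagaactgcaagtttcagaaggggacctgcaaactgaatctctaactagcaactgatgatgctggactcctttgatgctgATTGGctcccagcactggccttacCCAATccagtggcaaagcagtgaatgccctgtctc
H2-Aa held TGACG on both strands, overlapping in 1 palindrome, with a Y box after it, and H2-Eb1 held a pair of Y boxes and no TGACG. The Y box CCAAT was in 7 of 8 class II promoters (all but H2-DMa), TGACG in H2-Aa alone, TTCNNNGAA in H2-DMb2 and the ISRE core in none. H2-Ab1 and Cd74 are among 10 members for which no promoter was used here.

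Since dendritic cells, B cells and macrophages carry class II RNA, their markers were measured in the same libraries. Of all tested genes 29.9% were lower and 29.7% higher, the shares to set beside each count of markers here. The 8 B cell markers summed to 10.7 to 12.3 CPM in ctrl-Treg and 6.56 to 7.97 CPM in Sora-Treg libraries, and all 6 that were tested were lower. Cd79b made up most of this sum, while Ms4a1 and Cr2 had at most 7 and 3 counts. The 8 dendritic cell markers summed to 23.7 to 25.9 CPM and 12.4 to 14.9 CPM, and of 4 tested 3 were lower (Zbtb46, Flt3 and Ccl22) and Batf3 was higher. Per length the dendritic cell sum went the other way on average, from 10.5 ± 0.642 to 12.2 ± 1.35 FPKM (SD, n = 3), with overlapping groups. Among the dendritic cell markers, Itgax had at most 8 counts, Xcr1 at most 2, and Cd209a and Clec10a at most 1 in any library. Zbtb46 was well above these, with 460 to 619 counts per ctrl-Treg library and 120 to 164 per Sora-Treg library. The log2 fold changes were -1.896 for Zbtb46, -1.58 for Flt3 and -2.06 for Ccl22, against 1.07 for Batf3. The 12 macrophage and monocyte markers summed to 98.8, 97.7 and 26.1 CPM in ctrl-Treg and 23.8, 45.5 and 23.2 CPM in Sora-Treg libraries, and 7 of 11 tested were lower. In ctrl-Treg replicates 1, 2 and 3, in that order, Cd74 was at 69.8, 70.1 and 68.6 CPM and H2-Aa at 2.54, 2.69 and 1.82 CPM. Without ctrl-Treg replicates 1 and 2, replicate 3 is the only ctrl-Treg library. The log2 fold changes were then 1.81 for H2-Ab1, -2.05 for H2-Eb1, -1.77 for H2-Aa and -1.97 for Cd74. The CD8 T cell markers Cd8a and Cd8b1 summed to 13.2 to 15.1 CPM and 12.6 to 13.8 CPM. In CPM the B cell and dendritic cell sums were lower in the same libraries as Cd74, H2-Eb1 and H2-Aa, but each rested mostly on 1 gene in ctrl-Treg cells (Cd79b and Zbtb46). The macrophage sum was lower on average with overlapping groups. The part of B cells, dendritic cells and macrophages in the class II result was not tested.

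**Figure D4:**
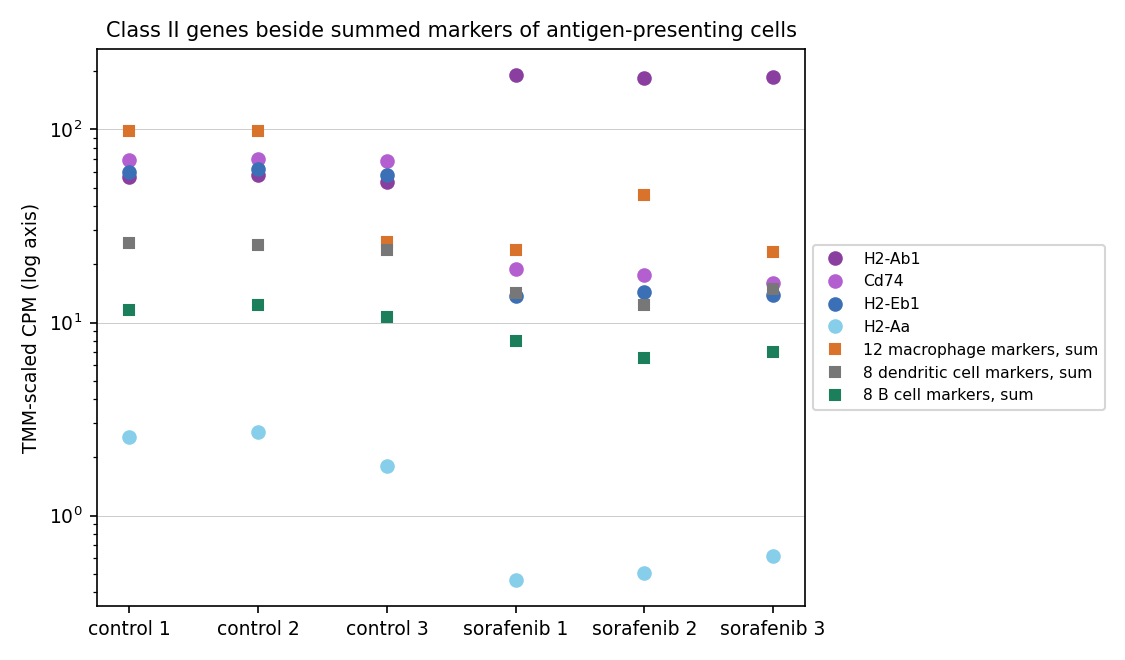
TMM-scaled CPM (log axis) in each of the 6 libraries of H2-Ab1, Cd74, H2-Eb1 and H2-Aa (circles) and of the summed markers of macrophages, dendritic cells and B cells (squares). The macrophage sum was high in ctrl-Treg replicates 1 and 2 (98.8 and 97.7 CPM) and low in replicate 3 (26.1 CPM). Cd74, H2-Eb1 and H2-Ab1 had similar levels in the 3 ctrl-Treg libraries and H2-Aa was lowest in replicate 3 (1.82 CPM).

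Genes of the class I light chain and of peptide loading were called in both directions, with small differences. B2m (chromosome 2), the light chain of every class I molecule, was at 1177, 1156 and 1207 CPM in ctrl-Treg cells against 1399, 1403 and 1399 CPM in Sora-Treg cells, a log2 fold change of 0.25 ± 0.02 (SE, adjusted p = 3.32e-09 by edgeR). Its ratio to H2-K1 was 1.38 ± 0.0435 and 1.38 ± 0.0297 (ratio of FPKM, SD, n = 3). Tapbp, or tapasin, which holds the heavy chain at the transporter, was at 190.4, 189 and 191 CPM and 238, 225 and 227 CPM, a log2 fold change of 0.27 ± 0.03 (SE, adjusted p = 6.63e-08 by edgeR). The RNA of the transporter subunits went the other way, so that Tapbp RNA was higher while Tap1 and Tap2 RNA were lower. Tap1 was at 275, 273 and 269.5 CPM and 230.5, 215 and 222 CPM, a log2 fold change of -0.29 ± 0.03 (SE, adjusted p = 2.07e-08 by edgeR). Tap2 was at 207, 206 and 196 CPM and 177, 176 and 180.3 CPM, a log2 fold change of -0.19 ± 0.03 (SE, adjusted p = 1.62e-05 by edgeR). The groups did not overlap in any of these 4 genes, the larger rise being 1.21-fold (Tapbp) and the larger fall 1.23-fold (Tap1). Over the 11 genes of loading and regulation, 2 were higher and 5 lower without overlap, and 4 overlapped. Of all tested genes 63.7% did not overlap (31.8% higher and 32% lower), so lack of overlap sets none of these genes apart. Tapbpl (chromosome 6), a tapasin relative that edits peptides, was at 63.9, 69.3 and 63.3 CPM and 69.4, 66.1 and 68.3 CPM, with overlap and a log2 fold change of 0.052 ± 0.044 (SE, adjusted p = 0.322 by edgeR) that was -0.0629 under scaling by library totals. Erap1 (chromosome 13), the aminopeptidase that trims peptides, was at 87.1, 91.0 and 88.3 CPM and 88.4, 93.0 and 88.0 CPM, with overlap and a log2 fold change of 0.015 ± 0.038 (SE, adjusted p = 0.751 by edgeR) that was -0.0999 under scaling by library totals. Tap1 overlaps Psmb9, Erap1 overlaps Cast and Tapbpl overlaps Vamp1 on the opposite strand, and Cast and Vamp1 had log2 fold changes of 0.49 ± 0.03 and 0.48 ± 0.07, so reads of these pairs could be mixed if counting ignored strand. Tapbp overlaps Zbtb22 on the same strand, where a strand setting would not part them, and Zbtb22 was also higher, with a log2 fold change of 0.31 ± 0.07 (SE, adjusted p = 3.70e-04 by edgeR).

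Of the regulators, Nlrc5, Rfx5 and Ciita were lower and Rfxank and Rfxap did not pass the test. Nlrc5 (chromosome 8), the class I coactivator, was at 282, 282 and 281 CPM in ctrl-Treg cells against 236, 241 and 245 CPM in Sora-Treg cells, a log2 fold change of -0.23 ± 0.03 (SE, adjusted p = 3.16e-07 by edgeR). In the same libraries class I genes went in both directions, with H2-K1, H2-D1 and B2m higher and H2-T22, H2-M3, Tap1 and Tap2 lower. The part of Nlrc5 in these differences was not tested. Rfx5 (chromosome 3), the subunit of the RFX complex that binds DNA, was at 54.6, 55.5 and 57.4 CPM and 37.8, 39.3 and 41.1 CPM, a log2 fold change of -0.50 ± 0.05 (SE, adjusted p = 4.84e-09 by edgeR). In both Nlrc5 and Rfx5 the groups did not overlap, as in 63.7% of all tested genes. Rfxap (chromosome 3) was at 23.5, 21.8 and 24.0 CPM and 24.0, 23.9 and 26.0 CPM, a log2 fold change of 0.093 ± 0.068 (SE, adjusted p = 0.249 by edgeR) that was -0.0227 under scaling by library totals. Rfxank (chromosome 8) was at 20.2, 20.7 and 22.9 CPM and 20.7, 21.3 and 22.5 CPM, a log2 fold change of 0.019 ± 0.072 (SE, adjusted p = 0.838 by edgeR) that was -0.0966 under that scaling. Both overlapped between the groups. Ciita (chromosome 16), the class II coactivator, was the scarcest regulator, with 12 to 37 counts in ctrl-Treg libraries and 2 to 11 in Sora-Treg libraries. Its log2 fold change was -1.50 ± 0.52 (SE, adjusted p = 0.0169 by edgeR), and the call was lost without ctrl-Treg replicate 1 (-1.08, edgeR adjusted p = 0.152) or Sora-Treg replicate 1 (-1.09, edgeR adjusted p = 0.0833). Without ctrl-Treg replicates 1 and 2, which had the high macrophage sums, its value was -0.74, with replicate 3 as the only ctrl-Treg library.

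**Figure D5:**
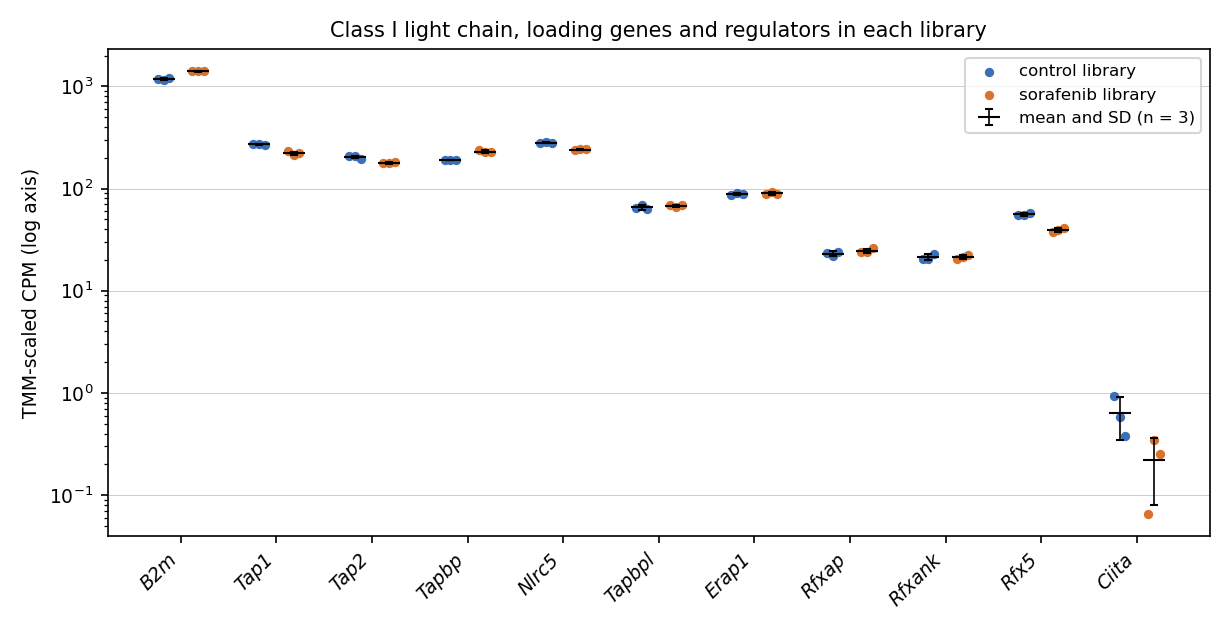
TMM-scaled CPM (log axis) of the light chain, the loading genes and the regulators in each ctrl-Treg library (blue) and each Sora-Treg library (orange), with the mean and SD of 3 libraries in black. B2m lay at 1180.0 and 1400.3 CPM, and Ciita lay below 1 CPM in every library.

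The promoters of B2m and Tap1 held TGACG, 5 of 6 promoters of this group held CCAAT (all but Erap1), and B2m and Erap1 held the ISRE core. The remaining H2- rows are not antigen-presenting genes, and both were called higher. H2-Ke6 encodes a hydroxysteroid dehydrogenase and was at 26.4, 29.0 and 26.2 CPM in ctrl-Treg cells against 33.2, 33.4 and 34.2 CPM in Sora-Treg cells, a log2 fold change of 0.30 ± 0.06 (SE, adjusted p = 1.31e-04 by edgeR). A transcript that runs through its gene, Gm20427, shares 92% of its 100-base windows. H2-T-ps, a class I pseudogene, was at 96.7, 94.5 and 93.6 CPM and 107, 103 and 111 CPM, a log2 fold change of 0.17 ± 0.04 (SE, adjusted p = 4.33e-04 by edgeR) that was 0.0551 (edgeR adjusted p = 0.21) under scaling by library totals.

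A list of 52 further genes of both presentation routes was read beside the members, of which 50 were tested, 20 were higher, 18 lower and 12 not called, with a median log2 fold change of 0.0078 (59.6% of all tested genes were called, 29.7% higher and 29.9% lower). Of 19 genes of the class I route 7 were higher and 8 lower, of 8 tested genes of the class II route 3 and 3, of 4 tested class I-like molecules 2 and 1, and of 19 regulators 8 and 6. Under scaling by library totals 11 were higher and 27 lower. The immunoproteasome subunits, which replace constitutive subunits and favour class I peptides, were lower or did not pass the test. Psmb10 was at 30.6, 31.3 and 29.4 CPM in ctrl-Treg cells against 21.0, 21.0 and 21.3 CPM in Sora-Treg cells, a log2 fold change of -0.53 ± 0.06 (SE, adjusted p = 1.39e-07 by edgeR). Psmb9 was at 88.3, 95.7 and 80.4 CPM and 72.7, 70.0 and 69.2 CPM, a log2 fold change of -0.32 ± 0.05 (SE, adjusted p = 7.44e-06 by edgeR). Psmb8 was at 324, 337 and 324 CPM and 318, 313 and 312 CPM, a log2 fold change of -0.062 ± 0.028 (SE, adjusted p = 0.0585 by edgeR). In Psmb10 and Psmb9 every Sora-Treg library lay below every ctrl-Treg library, and the same held for Psmb8 by a narrower margin. The cytosolic peptidase Ide was also lower, from 117 to 79.5 CPM (log2 fold change -0.56 ± 0.04, SE, adjusted p = 5.77e-11 by edgeR). In the class II route, Ifi30, the thiol reductase of endosomes, was at 44.0, 44.8 and 43.0 CPM and 26.9, 26.5 and 28.3 CPM, a log2 fold change of -0.69 ± 0.05 (SE, adjusted p = 1.30e-10 by edgeR). Marchf8, a ubiquitin ligase known to act on class II, was at 2.67, 3.57 and 2.85 CPM and 4.51, 5.80 and 6.43 CPM, a log2 fold change of 0.89 ± 0.17 (SE, adjusted p = 1.04e-04 by edgeR).

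Among class I-like molecules, Procr, the protein C receptor, was at 4.65, 3.02 and 3.85 CPM in ctrl-Treg cells against 28.1, 23.2 and 25.8 CPM in Sora-Treg cells, a log2 fold change of 2.74 ± 0.12 (SE, adjusted p = 2.64e-15 by edgeR). Cd1d1, which presents lipids to natural killer T cells, was at 7.29, 8.19 and 6.95 CPM and 3.03, 2.16 and 2.58 CPM, a log2 fold change of -1.53 ± 0.15 (SE, adjusted p = 8.47e-09 by edgeR). Hfe, the iron-regulating chain, was the other DEG of this kind at a log2 fold change of 1.85 ± 0.44 (SE, adjusted p = 0.00104 by edgeR), though it stayed under 1 CPM on average in both groups. Interferon-γ is the best known inducer of MHC genes, and the cultures held an antibody against it. The interferon-γ receptor chain Ifngr1 was at 127, 137 and 130.3 CPM and 363, 360.5 and 361 CPM, a log2 fold change of 1.46 ± 0.03 (SE, adjusted p = 1.29e-20 by edgeR). Irf1 was at 65.0, 64.2 and 60.5 CPM and 65.3, 67.4 and 68.7 CPM, a log2 fold change of 0.086 ± 0.043 (SE, adjusted p = 0.088 by edgeR) that was -0.0291 under scaling by library totals. The groups did not overlap in Ifngr1, and in Irf1 the Sora-Treg libraries lay just above the ctrl-Treg ones. Prdm1, a repressor known to silence Ciita in plasma cells, was at 6.32, 6.81 and 5.20 CPM and 15.6, 15.7 and 17.0 CPM, a log2 fold change of 1.39 ± 0.10 (SE, adjusted p = 5.95e-11 by edgeR). Genes whose products bind the motifs printed here were looked at after their values had been seen: Creb1 had a log2 fold change of -0.51 ± 0.04 (SE, adjusted p = 1.02e-09 by edgeR), and the NF-Y subunits Nfya, Nfyb and Nfyc had values of -0.14 ± 0.04, -0.25 ± 0.04 and -0.19 ± 0.07, all called lower (29.9% of all tested genes were lower). Of the 19 regulators on the same list 8 were higher and 6 lower. Among them Ep300 (0.50 ± 0.03) and Kat2b (0.34 ± 0.05) were called higher, and Crebbp (0.027 ± 0.036) was not called. The part of any of these genes in the MHC result was not tested.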

How the data were processed

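RNA-seq libraries of sorted mouse Treg cells (3 ctrl-Treg, 3 Sora-Treg) were grouped by their titles. The authors deposited raw read counts per gene symbol and FPKM for 22939 genes. Each deposited FPKM equalled the count over 1 length for each gene and over the library's total (largest relative difference of the implied length 1.09e-06), so it was used only to compare genes and in alternatives. The submitters' processing notes name fastp, HISAT2, HTSeq, R 3.2.0, DESeq2 and GRCm39, whereas the study's methods name Bowtie2, GRCm38 and an expectation maximization step for the expression values. The build and the treatment of reads that fit several genes are therefore unsettled, and the only coordinates printed are those of RefSeq promoters. HTSeq by default drops such reads, which would lower the counts of near-identical genes, whereas expectation maximization divides them among genes. The annotation release and strand setting were not given in the sources used here.

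Counts were tested with the edgeR 4.0.16 quasi-likelihood test in R 4.3.3 (TMM, filterByExpr, no covariate, Benjamini-Hochberg over 13463 genes), and the SE is the one implied by the F statistic. Alternatives were other scalings, filters, robust fitting, DESeq2 1.42.0, a replicate block, each library left out, ctrl-Treg replicates 1 and 2 left out together, and limma 3.58.1 on log2(FPKM + 1) or log2(FPKM + 0.1). Leaving out ctrl-Treg replicates 1 and 2 keeps replicate 3 alone, so the ctrl-Treg group then has no spread of its own. The test scripts were tested on simulated data. Replicates differed by more than sampling noise (chi-square per degree of freedom 3.48 to 6.23 within groups). Between 3 and 3 libraries the smallest p an exact permutation test allows is 0.1, so sums, shares and ratios are given without a test. Intervals of counts and the floor cover counting error only.

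The members, gene lists and marker lists were chosen with earlier results of these data known. Every member is accounted for: those with a mean of at least 20 counts that passed the filter by each library, the others by their range or largest count. Further pathway genes named are the 4 with the largest log2 fold change in each direction among called genes whose average log2 CPM reached 1, and a few fixed by name, of which Psmb8, Psmb9, Psmb10 and Irf1 are given and the rest is not reported here. Others were named after their values were seen. Promoters are those of RefSeq on GRCm38.p6 at the first listed start, found for 29 of 39 members. Shared windows and overlapping genes are from GENCODE vM21, which has no H2-Q9.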

Additional observations from a re-analysis of the deposited data

How the results depend on the processing

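Of 26 called members, 22 kept their direction and their call under every alternative. The exceptions were Ciita, H2-Q1, H2-Q9 and H2-T-ps. H2-Q1 had a value in only 15 alternatives and among these differed only in the fit with ctrl-Treg replicate 3 alone. Of 166 counts and sums over lists and alternatives, 155 stayed near the reported value (a count within 1.5 times, a log2 ratio of sums within 1 SD of the libraries). Scaling by library totals gave 5 lower class I genes in place of 3 (H2-Q4 and H2-Q6 in addition) and 11 higher genes of the wider pathway in place of 20. FPKM are scaled by library totals, and limma gave 9 such genes with either pseudocount and 11 without a filter. The log2 ratio of summed class I heavy chains was 0.27, and 0.23 with upper quartile scaling, 0.16 with library totals and 0.18 from FPKM. That of the classical class II genes was 0.77, and 0.65 with library totals, 0.85 from FPKM and 0.83 without ctrl-Treg replicates 1 and 2.

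Reversed signs were found among members that did not pass the test. Erap1 gave -0.023 with upper quartile scaling, -0.10 with library totals, -0.0080 without Sora-Treg replicate 2 (up to 0.036 with another library left out), and -0.094, -0.099 and -0.094 from FPKM with a pseudocount of 1, of 0.1 and without a filter. Rfxank gave -0.019, -0.097, -0.014 (without ctrl-Treg replicate 1), -0.014 (without Sora-Treg replicate 3, up to 0.071 with another library left out), -0.088 (without ctrl-Treg replicates 1 and 2), -0.084, -0.097 and -0.084 in the same order of settings. With library totals and with the same FPKM settings, Rfxap gave -0.023, -0.022, -0.024 and -0.022, Tapbpl -0.063, -0.059, -0.061 and -0.059, and Irf1, which is no member, -0.029, -0.027, -0.028 and -0.027. H2-Q7 gave 0.12 without ctrl-Treg replicate 1 and -0.27 without replicate 2, and H2-Q6 0.0034 without ctrl-Treg replicates 1 and 2. Values this near 0 take the sign of the scaling, and for single libraries the cause was not tested.

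Replicate numbers did not pair the samples (correlation of same-numbered deviations -0.044, 0.059 and 0.030). With the replicate number as a block, class I genes stayed at 7 higher and 3 lower, class II genes at 1 and 6, loading genes and regulators at 2 and 5, and wider pathway genes at 20 and 18. With at most 11 counts in any library, H2-M2, H2-M5, H2-T3 and H2-Eb2 are limited by depth. Ciita had 2 to 37 counts and lay above the floor of 3 counts in all libraries but Sora-Treg replicate 1, so its value rests on few reads.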
